A study of Homo sapiens with 8 samples.

Results

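The genes described here encode the matrix metalloproteinases (MMPs), the ADAM and ADAMTS metalloproteinases and their tissue inhibitors (TIMPs), taken as every gene whose symbol in the array's probe table begins with MMP, ADAM, ADAMTS or TIMP followed by a digit. Of 11963 genes with a probe set of a single symbol, 55 met this rule: 19 ADAM, 10 ADAMTS and 21 MMP genes, 4 TIMP genes, and MMP24OS, a gene on the strand opposite MMP24 that encodes no protease of these families. RefSeq lists 3 of the ADAM genes (ADAM3A, ADAM3B and ADAM5) as transcribed pseudogenes. A probe set shared by MMP23A and MMP23B and another shared by ADAM29 and an uncharacterised locus were left out because each names 2 genes. The RNA came from A375P, an established human melanoma line, in which stable lines had been made with lentiviral short hairpin RNAs. The 2 hairpins against PGC1α, named 65 and 66, form one arm, and the 2 control hairpins, shGFP and shScr, form the other. All lines went through 48 h of puromycin selection and were harvested 48 h after it. Each hairpin has 2 arrays, so each arm has 4. Whether both arrays of a hairpin came from separate cultures is not given in the labels, so p-values measure the spread between these samples, which may be technical. The main test of the arms and the exact permutation tests count the 2 arrays of a hairpin as independent. Each arm holds only 2 hairpins.

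These proteases use a zinc ion to cut proteins outside the cell or at its surface. MMPs degrade collagens and other matrix proteins, and some are tethered to the membrane. ADAMs shed the outer parts of membrane proteins, among them growth factor precursors and Notch, while ADAMTS enzymes are secreted and cut proteoglycans and procollagens. TIMPs block the active site of these enzymes, and TIMP2 at low amounts also helps to activate pro-MMP2 on the cell surface. In melanoma the families are known for their part in invasion and in shedding of receptors and ligands. The product of PPARGC1A, PGC1α, is a coactivator of nuclear receptors best known for raising mitochondrial gene expression.

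The hairpins lowered their target. PPARGC1A had signals of 559.7 and 543 with shGFP, 570.2 and 551 with shScr, 126 and 144 with hairpin 65 and 114 and 115 with hairpin 66 (4.48-fold lower over the arms, exact two-sided permutation p = 0.0286, the smallest that 4 against 4 arrays allow). The median signal per array was between 137 and 142. The melanoma label was checked against melanocyte lineage genes: of 7 measured markers, MITF, SOX10, PMEL, TYR and S100B were above low signal, and MLANA and TYRP1 were not. The summed signal of these 7 markers was 18727 to 20235 in the control arrays and 14730.3 to 15958 in the PGC1α arm, with MITF, PMEL, TYRP1 and S100B called lower and SOX10 higher. Of 8 fibroblast markers 3 were above low signal, and their sum over all 8 was 1075 to 1673 in the controls and 1230.5 to 1378 with the PGC1α hairpins; PDGFRB, of low signal, was called higher (1.44-fold, adjusted p = 0.00743), with the arms apart. None of the 14 measured blood, endothelial and epithelial markers was above low signal. For the ACTB control probe sets, the 3′ minus 5′ log2 difference averaged 2.19 ± 0.18 over control arrays and 2.53 ± 0.11 over PGC1α arrays (SD, n = 4 each), without overlap (exact permutation p = 0.0286). The GAPDH probe sets gave 0.17 and 0.18 (exact permutation p = 0.571). In bulk RNA of this kind, fewer cells of a type and less RNA per cell cannot be told apart.

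The values carry no detection calls, so a gene was called above low signal where its mean log2 signal over all 8 arrays passed the 40th percentile of all genes, at a signal of 114. By this rule 21 of the 55 genes were above low signal and 34 were not. The genes nearest the line were MMP11 at 94.95 below it and ADAMTS13 at 118 above it. Of the TIMPs, TIMP1, TIMP2 and TIMP3 were above the line and TIMP4 was not. Above it too were ADAM9, ADAM10, ADAM12, ADAM15, ADAM17, ADAM19 and ADAM23, the ADAMTS genes 1, 3 and 13, MMP24OS, and MMP2, MMP8, MMP14, MMP15, MMP16, MMP17 and MMP19. Many of the best known MMPs gave low signals in every line, including the collagenases MMP1 and MMP13, the gelatinase MMP9, the stromelysins MMP3 and MMP10, and the matrilysin MMP7. At such signals background can make up much of a value, and a difference that is not called says little about the gene's RNA.

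**Figure D1:**
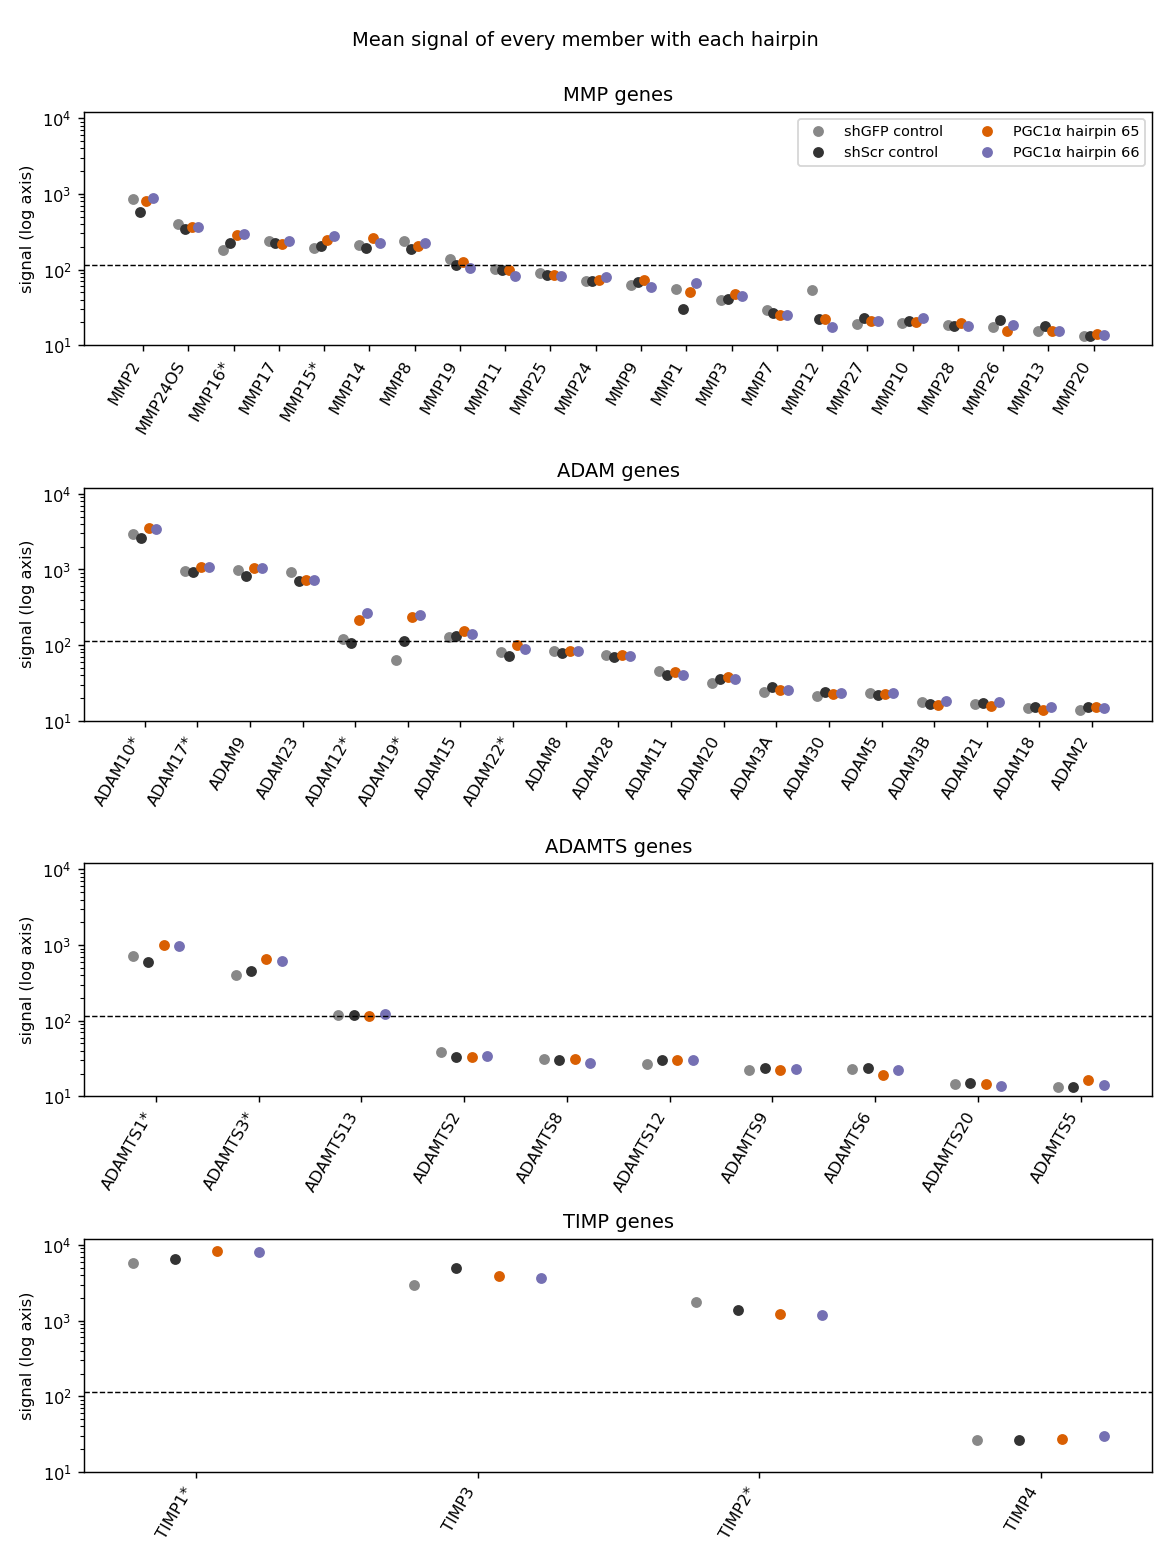
Mean signal (log axis) of each of the 55 genes with each of the 4 hairpins, 2 arrays per point, in panels by family. The dashed line marks the 40th percentile of all genes (signal 114), an asterisk marks a gene called between the arms, and signals of different probe sets are not on a common scale of abundance. ADAM19 lies below the line or close to it with the control hairpins and above it with both PGC1α hairpins.

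RefSeq promoters (GRCh38.p14) were matched for 31 of the 55 genes and for 8 of the 11 genes called between the arms. The 250 bases before the start site are printed here for the genes with the largest rises, ADAM19 and ADAM12, and for MMP7 and MMP10, low-signal members of the MMP gene cluster, as a contrast. MMP7 and MMP10 were picked by hand, and both carry the letters marked below. They do not stand for the whole cluster. Capitals mark TGANTCA, called the AP-1 letters here, and the TATA box letters TATAAA, where either is present. TGANTCA allows any middle base, so it is looser than the site bound by FOS and JUN proteins. MMP7 has TGAGTCA, while MMP10, MMP20 and ADAMTS12 have TGAATCA. Binding was not tested. The windows are chr5:157575776-157576025 (ADAM19), chr10:126388478-126388727 (ADAM12), chr11:102530748-102530997 (MMP7) and chr11:102780629-102780878 (MMP10), all on the minus strand and written 5′ to 3′ along the gene.
ADAM19: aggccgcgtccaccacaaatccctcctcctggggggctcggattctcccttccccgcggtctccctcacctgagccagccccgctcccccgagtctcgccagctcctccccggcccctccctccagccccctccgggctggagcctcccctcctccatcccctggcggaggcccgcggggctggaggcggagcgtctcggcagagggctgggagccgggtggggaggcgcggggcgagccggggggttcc
ADAM12: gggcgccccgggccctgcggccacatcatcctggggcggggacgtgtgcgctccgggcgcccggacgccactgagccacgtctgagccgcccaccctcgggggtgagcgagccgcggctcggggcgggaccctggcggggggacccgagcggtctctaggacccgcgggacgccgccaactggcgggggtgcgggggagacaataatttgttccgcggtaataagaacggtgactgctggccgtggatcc
MMP7: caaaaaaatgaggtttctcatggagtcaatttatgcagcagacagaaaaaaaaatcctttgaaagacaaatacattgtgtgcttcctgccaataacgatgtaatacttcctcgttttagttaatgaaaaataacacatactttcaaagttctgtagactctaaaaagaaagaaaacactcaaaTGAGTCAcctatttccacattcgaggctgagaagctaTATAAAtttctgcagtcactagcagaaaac
MMP10: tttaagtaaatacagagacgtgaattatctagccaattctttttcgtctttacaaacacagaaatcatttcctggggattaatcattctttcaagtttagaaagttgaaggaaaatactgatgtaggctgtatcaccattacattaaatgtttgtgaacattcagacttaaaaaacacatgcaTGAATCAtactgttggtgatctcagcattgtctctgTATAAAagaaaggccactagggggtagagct
In MMP7 the AP-1 letters lie from -67 to -61 and the TATA letters from -30 to -25, counted back from the start site. In MMP10 they lie from -67 to -61 and from -31 to -26. Elsewhere in the cluster, MMP20 had AP-1 letters from -112 to -106 and TATA letters from -72 to -67. MMP8 had TATA letters alone, from -110 to -105. Searched on both strands, TGANTCA stood in 4 of the 31 windows (MMP7, MMP10, MMP20 and ADAMTS12), and in 6.57% of all 35116 promoter windows of this length. It was in 0 of the 8 windows of genes that rose, as were TATAAA (10.7% of all windows), the cyclic AMP element TGACGTCA (1.65%) and AAGGTCA (3.44%), the letters of the site bound by the ERR nuclear receptors, partners of PGC1α. No match says only that these letters are not in these windows. The GC content of the 8 windows was 64.8% to 76.4% with a median of 74.2%, against 32.8% to 41.6% in the 5 matched genes of the MMP cluster and a median of 58% over all promoters. The 14 matched members above low signal, which include most of these 8, had a median of 73% (36.4% to 79.6%). The 17 matched members of low signal had a median of 52.4% (32.8% to 80%). Since the 14 and the 8 share genes, their medians cannot show whether a high GC content was particular to the genes that rose.

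The main comparison asked which of these genes change when PGC1α is lowered by either of its hairpins. ADAM10, ADAM12, ADAM17, ADAM19, ADAM22, ADAMTS1, ADAMTS3, MMP15, MMP16 and TIMP1 were higher with the PGC1α hairpins, TIMP2 was lower, and the other 44 genes were not called. Called by limma at an adjusted p under 0.05 over all 11963 genes, 10 members rose (18.2%) and 1 fell (1.82%), against 11.6% and 10.7% of all genes. In all 11 of 55 were called, 20% against 22.2% of all genes, so the share called was near the background. In 10 members (18.2%) the arms did not overlap, against 27.5% of all genes. The median log2 change was 0.04 over the 55 members and -0.00 over all genes. ADAM22 was of low signal. ADAM19 and ADAM12 passed the low-signal line through their PGC1α arrays, since their control means of 88.8 and 114 lay under it. As a limit, 6 members passed with the 2 arrays of each hairpin averaged, where ADAM10, ADAM17, ADAM22, MMP15 and TIMP2 did not. Against a 1.2-fold minimum 4 passed (ADAM12, ADAM19, ADAMTS1 and ADAMTS3). With the ACTB difference as a covariate 2 passed (ADAM12 and ADAMTS3). Of all genes, 7.34%, 4.56% and 4.42% passed in these settings, so calls fell over the whole array.

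The largest changes were in ADAM19 and ADAM12, membrane ADAMs with an active zinc site that are known from muscle, heart and stromal cells. ADAM19 (Entrez gene 8728), which sheds neuregulin precursors, had signals of 69.8 and 55.7 with shGFP, 113 and 117 with shScr, 255 and 216 with hairpin 65 and 242 and 260.5 with hairpin 66. All 4 PGC1α arrays lay above all 4 controls, and the controls themselves fell apart by hairpin. The change was 2.87-fold (log2 1.52, SE 0.22, limma adjusted p = 9.13e-04). Against shScr alone it was 2.11-fold (adjusted p = 4.71e-04) and against shGFP alone 3.89-fold (adjusted p = 1.73e-05). These p-values rest on the spread between arrays of the same hairpin (SE 0.11). They leave out the differences between hairpins of an arm, so they are not stronger evidence than the main value. A second ADAM19 probe set, at a signal of 32.1, had a log2 change of 0.10 (adjusted p = 0.367).

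ADAM12 (Entrez gene 8038), a protease of heparin-binding EGF and of IGF-binding proteins, had signals of 119.6, 122, 121 and 93.3 in the controls, 232 and 201 with hairpin 65 and 285 and 244 with hairpin 66. The arms were well apart, and the control hairpins were close to each other (log2 difference 0.19, adjusted p = 0.476). ADAM12 rose 2.10-fold over the arms (log2 1.07, SE 0.12, adjusted p = 1.87e-04). Of its 4 probe sets, 3 were called higher, with log2 changes of 1.64, 1.07 and 0.30, and the fourth had 0.18 (adjusted p = 0.239). ADAM12 kept its call with each array or hairpin left out and in the other settings tried.

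ADAM10 and ADAM17, the main sheddases of Notch and of EGF-family ligands and TNF, rose by little. ADAM10 (Entrez gene 102) had signals of 2931 and 2937 with shGFP, 2659.5 and 2554 with shScr, 3454 and 3594 with hairpin 65 and 3489.7 and 3440.3 with hairpin 66. The arms did not overlap, and the change was 1.26-fold (log2 0.34, SE 0.06, adjusted p = 0.00292), with its other 2 probe sets at 0.20 and 0.17 and not called. The ADAM10 call ended with the arrays of a hairpin averaged, against the 1.2-fold minimum and with the ACTB covariate. ADAM17 (Entrez gene 6868) had a mean of 944 ± 40.9 in the controls and 1080.1 ± 36.4 in the PGC1α arm (SD, n = 4), a 1.14-fold rise with an adjusted p of 0.0242. That call ended without shGFP replicate 1 (adjusted p = 0.062), shScr replicate 2 (0.063), hairpin 65 replicate 1 (0.0663) or hairpin 66 replicate 2 (0.0643), in a range of 0.00911 to 1 over 25 alternatives. Against the controls, hairpin 65 alone gave an adjusted p of 0.0714 for ADAM17 and hairpin 66 alone 0.0543. The other ADAM17 probe sets, tested singly, had log2 changes of 0.17 (adjusted p = 0.0973) and 0.10 (adjusted p = 0.268) and were not called.

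ADAM9, another sheddase, had 1020.2 and 928 with shGFP, 840.0 and 778 with shScr, and 968 to 1116 over the PGC1α arrays, with an adjusted p of 0.113, and 0.0412 without shGFP replicate 1. ADAM15, which binds integrins, had a log2 change of 0.19 (adjusted p = 0.0787), and 1 of its PGC1α arrays, at 129.9, lay within the control range of 127 to 133. Without hairpin 66 replicate 1 it was called (adjusted p = 0.01). ADAM22 lacks the zinc site and serves as a receptor for the secreted protein LGI1. Its signal was low, 76.7 ± 8.90 over control arrays and 94.8 ± 8.34 over PGC1α arrays (SD, n = 4), with overlap between the arms. It was called at an adjusted p of 0.0387, and 4 of its 6 probe sets were called higher when tested singly, with all 6 log2 changes between 0.29 and 0.55. The call of the probe set used ended without shGFP replicate 2 (adjusted p = 0.0748), shScr replicate 1 (0.0716), shScr replicate 2 (0.186), hairpin 65 replicate 1 (0.106), hairpin 65 replicate 2 (0.0815) or hairpin 66 replicate 2 (0.074), in a range of 2.44e-04 to 1 over 24 alternatives. Among the 11 measured ADAMs with a zinc site 4 rose and 0 fell, against 11.6% higher and 10.7% lower over all genes, with a median log2 change of 0.19. Among the 5 without one ADAM22 alone was called, and the median was -0.04.

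Of the 10 ADAMTS genes, ADAMTS1 and ADAMTS3 rose and 0 fell, a share called near the 22.2% of all genes, and the median log2 change of the 10 was -0.01. ADAMTS1 (Entrez gene 9510), which cuts the proteoglycans aggrecan and versican, had 704 and 730.1 with shGFP, 609 and 600.0 with shScr, 978 and 1029 with hairpin 65 and 1054 and 919 with hairpin 66. Every PGC1α array was above every control array, and the change was 1.51-fold (log2 0.59, SE 0.08, adjusted p = 5.61e-04). ADAMTS3 (Entrez gene 9508), which removes the N-propeptide of procollagen and activates VEGF-C, had 408 and 396 with shGFP, 460.1 and 458 with shScr, 651 and 641 with hairpin 65 and 642 and 606 with hairpin 66. It too was clear of the controls with both hairpins, by 1.48-fold (log2 0.56, SE 0.06, adjusted p = 2.17e-04). ADAMTS13, the protease of von Willebrand factor, was above low signal with a log2 change of -0.00 (adjusted p = 0.982). The procollagen protease ADAMTS2 and the aggrecanase ADAMTS5 were of low signal and not called.

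**Figure D2:**
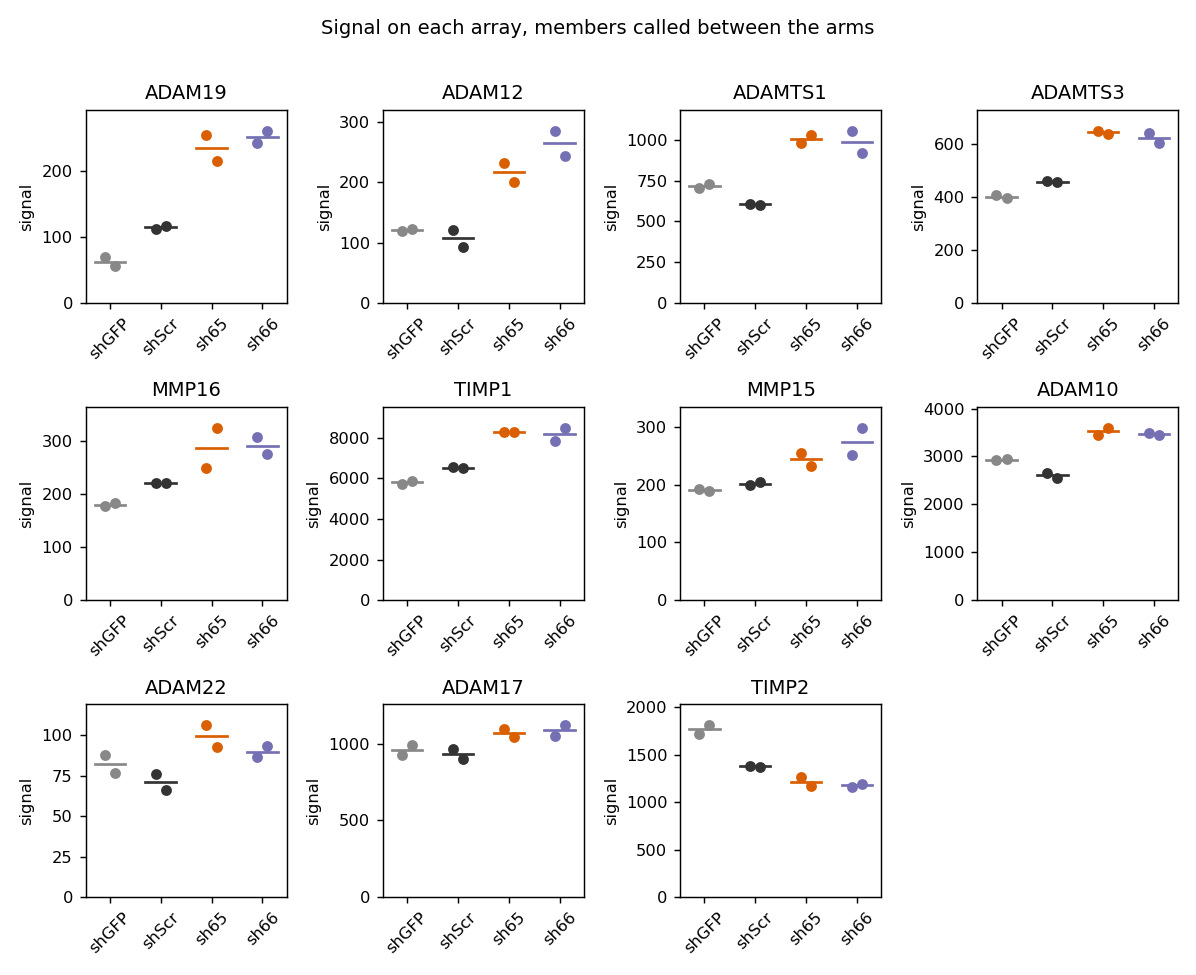
Signal on each of the 8 arrays (points, linear axis from 0) and the mean per hairpin (lines) for the 11 members called between the arms, in order of log2 change. In 10 of them the arms do not overlap, and ADAM22 is the exception.

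Among the membrane-type MMPs, 2 of 6 rose and 0 fell (11.6% and 10.7% of all genes), with a median log2 change of 0.18. MMP16 (Entrez gene 4325), also known as MT3-MMP, had 178 and 183 with shGFP, 221 and 221 with shScr, 249.6 and 325 with hairpin 65 and 307 and 277 with hairpin 66, a 1.44-fold rise (log2 0.53, SE 0.10, adjusted p = 0.00523). A second of its 4 probe sets was also called higher (log2 0.31), and the other 2 had 0.09 and 0.21. Without hairpin 66 the MMP16 call ended (adjusted p = 0.0578). MMP15 (Entrez gene 4324), or MT2-MMP, had 189 to 205 in the controls, 255 and 232 with hairpin 65 and 251 and 298 with hairpin 66, and rose 1.32-fold (log2 0.40, SE 0.08, adjusted p = 0.00459). The MMP15 call ended with the arrays of a hairpin averaged, against the 1.2-fold minimum and with the ACTB covariate.

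MMP14, or MT1-MMP, is the main activator of pro-MMP2 and a collagenase at the cell surface. It had 225 and 203 with shGFP, 188 and 202 with shScr, 278 and 244 with hairpin 65 and 214 and 239 with hairpin 66. The groups overlapped at 1 hairpin 66 array, and the log2 change of 0.25 missed the threshold (adjusted p = 0.0609). Tested singly over all probe sets, 2 of its 4 were called higher (log2 0.24 and 0.29), and the mean of all 4 was called as well (adjusted p = 0.0235). It was also called without shGFP replicate 1 (adjusted p = 0.0446) and without hairpin 66 replicate 1 (0.0289). Against the controls, MMP14 was called with hairpin 65 (log2 0.35, adjusted p = 0.0191) and not with hairpin 66 (0.15, adjusted p = 0.250), and the difference between the hairpins was not called (adjusted p = 0.729).

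Of the 15 secreted MMPs, limma called 0 between the arms, against 22.2% of all genes, and 2 had an unadjusted p under 0.05. Only MMP2, MMP8 and MMP19 among them were above low signal, so for the rest the lack of a call says little. MMP2, the gelatinase that cuts type IV collagen, was the only gelatinase above low signal. It had 828.9 and 903 with shGFP, 555 and 602 with shScr, 876 and 711 with hairpin 65 and 910.2 and 866 with hairpin 66, so all 4 PGC1α arrays lay above both shScr arrays, and hairpin 65 replicate 2 lay below both shGFP arrays (log2 change 0.24, adjusted p = 0.320). Against the controls, MMP2 was called higher with hairpin 66 (log2 0.33, adjusted p = 0.0413) and not with hairpin 65 (0.16, adjusted p = 0.270). The difference between the hairpins was not called (adjusted p = 0.785). A run of 9 MMP genes that neighbour each other on chromosome 11, from MMP7 to MMP13, had 1 member above low signal, MMP8. In this run 0 were called, against 22.2% of all genes, and 2 had an unadjusted p under 0.05. MMP11, a stromelysin of stromal tissue that lies elsewhere, had a low signal of 95.3 to 102 in the controls, 95.5 and 103 with hairpin 65 and 85.1 and 81.6 with hairpin 66. Only with hairpin 66 was it called against the controls (log2 -0.25, adjusted p = 0.0166), and the test between the hairpins gave an adjusted p of 0.587.

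The inhibitors went in different directions. TIMP1 (Entrez gene 7076), which inhibits most soluble MMPs and ADAM10 and also signals through CD63, had 5729.6 and 5873 with shGFP, 6547 and 6503 with shScr, 8292 and 8261 with hairpin 65 and 7851 and 8481 with hairpin 66. The arms were apart by more than the spread within each, and TIMP1 rose 1.34-fold (log2 0.42, SE 0.06, adjusted p = 9.58e-04). TIMP2 (Entrez gene 7077) had 1720.1 and 1811 with shGFP, 1378 and 1374 with shScr, 1261 and 1172 with hairpin 65 and 1162 and 1194 with hairpin 66. It fell by 0.38 on the log2 scale (1.30-fold, SE 0.10, adjusted p = 0.0175), though the control hairpins also differed, shGFP minus shScr being 0.36 (adjusted p = 0.0160). Against shScr alone TIMP2 was 1.15-fold lower (adjusted p = 0.0404) and against shGFP alone 1.48-fold lower (adjusted p = 2.95e-04). Without hairpin 65 its adjusted p was 0.0953, and without hairpin 66 it was 0.132.

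TIMP3 (Entrez gene 7078), the matrix-bound inhibitor that also blocks ADAM17 and ADAMTS enzymes, depended on which control it was set against. It had 2922 and 3064 with shGFP, 4879 and 4953 with shScr, 3779 and 3973 with hairpin 65 and 3711 and 3665 with hairpin 66. The 4 PGC1α arrays lay between the control hairpins, above shGFP by a log2 difference of 0.34 (adjusted p = 0.00253) and below shScr by one of 0.38, as PGC1α hairpins minus shScr was -0.38 (adjusted p = 0.00223). Over both controls the log2 change was -0.02 (adjusted p = 0.954). The other 3 TIMP3 probe sets had log2 changes of -0.13, -0.17 and -0.08. TIMP4, at 26.5 in the controls and 28.5 with the PGC1α hairpins, was of low signal (adjusted p = 0.376).

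How far the control hairpins differ sets the scale for these changes. Between shGFP and shScr 8 of the 55 genes were called (14.5%, against 7.85% of all genes), 6 higher and 2 lower in shGFP (4.4% and 3.45% of all genes). The count was 3 without either shGFP array and 4 without either shScr array. The 2 lower in shGFP were TIMP3 and ADAM19, and the 6 higher were TIMP2, MMP2, MMP8, ADAM23, MMP1 and MMP12. ADAM19 and TIMP2 are the 2 of the 11 called members in this group.

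MMP12, the macrophage elastase, showed the widest gap. Its low signal was 59.8 and 48.2 with shGFP, 22.3 and 21.6 with shScr, 22.2 and 21.6 with hairpin 65 and 17.0 and 17.5 with hairpin 66. The shGFP arrays stood above the other 6. The log2 change was -1.46 against shGFP (adjusted p = 2.59e-05) and -0.17 against shScr (adjusted p = 0.210), and over both controls it was not called (adjusted p = 0.0931). Without shScr replicate 1 it was called (adjusted p = 0.0384), and likewise without shScr replicate 2 (0.0333).

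MMP1, the interstitial collagenase, had low signals of 52.0 and 57.5 with shGFP, 35.5 and 24.2 with shScr, 50.8 and 49.0 with hairpin 65 and 71.1 and 63.0 with hairpin 66. MMP1 was called higher against the controls with hairpin 66 and not with hairpin 65. With both PGC1α hairpins together it was higher against shScr (log2 0.98, adjusted p = 0.00305) and not against shGFP (0.08, adjusted p = 0.741). For MMP2 the same 2 differences were 0.53 (adjusted p = 0.00633) and -0.05 (adjusted p = 0.757). ADAM23, a brain ADAM without the zinc site that binds integrins, had 907 and 935 with shGFP and 669 to 788 over the other 6 arrays, with -0.34 against shGFP (adjusted p = 0.0113) and 0.06 against shScr (adjusted p = 0.652). A second ADAM23 probe set was called lower between the arms when tested singly (log2 -0.30, adjusted p = 0.0323). MMP8, the neutrophil collagenase, had 244 and 232 with shGFP and 174 and 196 with shScr, and its PGC1α arrays, at 207 to 234, lay between the means of the 2 controls (adjusted p = 0.827 over both).

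**Figure D3:**
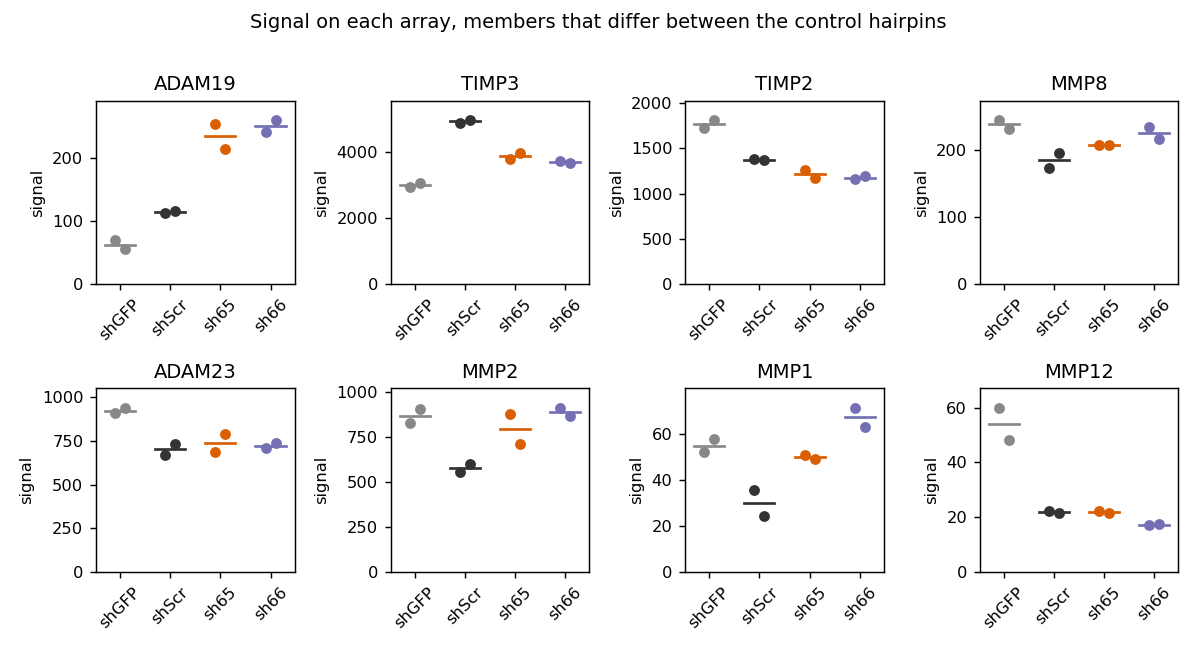
Signal on each of the 8 arrays (points, linear axis from 0) and the mean per hairpin (lines) for the 8 members called between shGFP and shScr. For TIMP3 the PGC1α arrays lie between the control hairpins, and for MMP12 shGFP alone is high.

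Against shScr alone 16 members were called, 14 higher and 2 lower (29.1%, against 20.4% of all genes, 11.3% higher and 9.17% lower). The count was lower with either shScr array left out, and the share of all genes in those fits was not counted. Against shGFP alone 13 were called, 9 higher and 4 lower (23.6%, against 27.7% of all genes, 14.1% higher and 13.6% lower). Of the 11 members called over both controls, all 11 were called against shScr and 9 against shGFP; ADAM17 (adjusted p = 0.0764) and ADAM22 (adjusted p = 0.157) were the 2 not called against shGFP. The 4 lower against shGFP were TIMP2, ADAM23, MMP12 and MMP7, the last a matrilysin named after its values were seen (log2 -0.23, adjusted p = 0.0493, low signal). These comparisons share the PGC1α arrays.

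Each PGC1α hairpin was also set against the controls. Against the controls, hairpin 65 called 14 members (11 higher and 3 lower, 25.5% against 23.4% of all genes, 13% higher and 10.4% lower) and hairpin 66 called 13 (10 higher and 3 lower, 23.6% against 22.1% of all genes, 11.2% higher and 10.9% lower); both use the same control arrays. The count for hairpin 65 was lower without its replicate 1, and the share of all genes in that fit was not counted. The 2 lower besides TIMP2 were MMP12 and ADAMTS6 with hairpin 65 and MMP12 and MMP11 with hairpin 66. ADAMTS6, named after its values were seen, had a low signal of 19.5 with hairpin 65 against 22.7 with shGFP and 23.6 with shScr (adjusted p = 0.0486). In the direct test of hairpin 65 against hairpin 66, limma called 0 of 55 members and 0% of all genes; 4 members had an unadjusted p under 0.05, namely MMP11, MMP9, MMP1 and MMP12. For the 11 called members, the log2 difference of hairpin 65 minus hairpin 66 ran from -0.29 in ADAM12 to 0.15 in ADAM22, with a median size of 0.05. In ADAM19 the change was 2.77-fold with hairpin 65 and 2.97-fold with hairpin 66, and in TIMP1 1.35-fold and 1.33-fold.

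**Figure D4:**
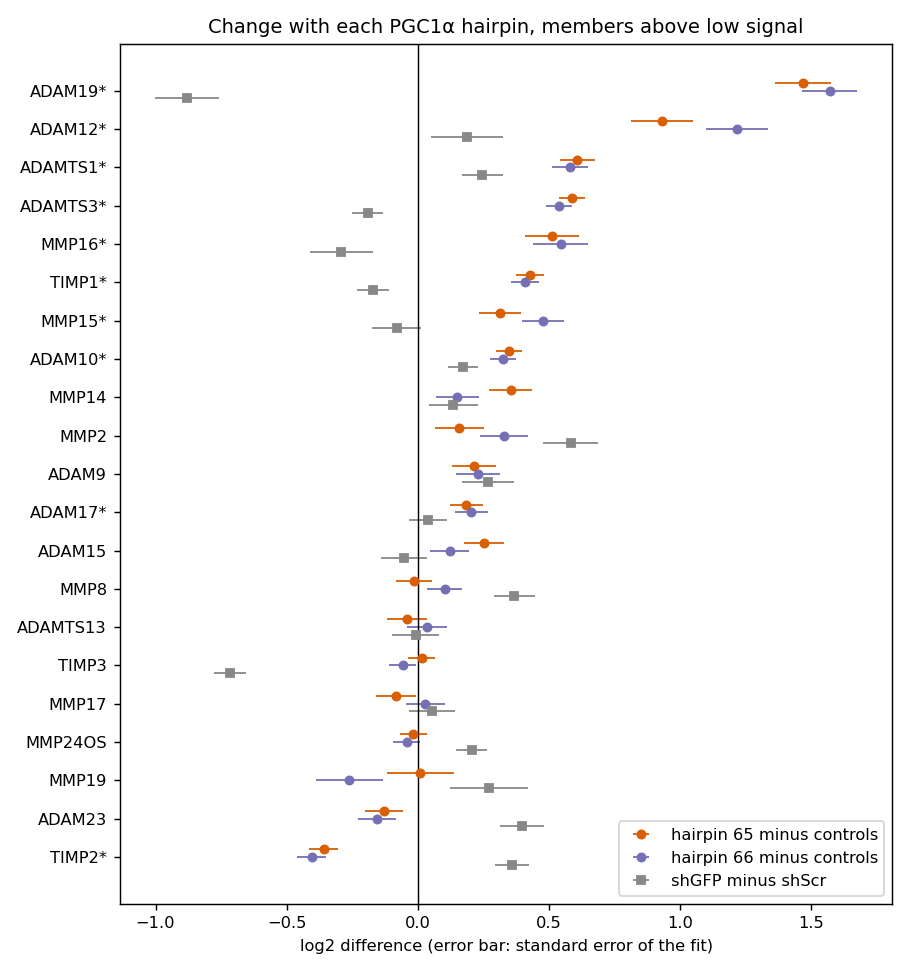
Log2 difference of hairpin 65 (orange) and hairpin 66 (purple) from the mean of the controls, and of shGFP from shScr (grey squares), with the standard error of the 4-group fit, for the 21 members above low signal. An asterisk marks a member called between the arms; for the marked members the PGC1α hairpins differ by at most 0.29, while the grey squares of ADAM19, TIMP3 and MMP2 lie far from 0.

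The other 33 members were given no place by the naming rule. They had log2 changes between -0.19 and 0.21, 4 of them were above low signal, and limma called 0 of them between the arms (1 at an unadjusted p under 0.05) and 0 between the control hairpins. The 4 above low signal were MMP17, MMP19, ADAMTS13 and MMP24OS. Of 21 members with several probe sets, 5 had log2 changes of both signs and 0 had calls in both directions.

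Other genes that set the activity of these proteases were read from the same fit. Of 45 listed regulators 39 were measured, 11 rose and 3 fell (35.9% called, against 22.2% of all genes), with a median log2 change of 0.03. Leaving out hairpin 65 gave 8 calls and leaving out hairpin 66 gave 7, and there were 6 with the arrays of a hairpin averaged, 6 against a 1.2-fold minimum and 5 with the ACTB difference as a covariate. In these settings, in the same order, 11.6%, 12.3%, 7.34%, 4.56% and 4.42% of all genes were called. Among anchors, inhibitors and clearance receptors 3 of 8 rose and 1 fell (11.6% and 10.7% of all genes), with a median log2 change of 0.12. TFPI2, a Kunitz inhibitor of plasmin that also limits MMP activation, had a mean of 128 ± 36.5 in the controls and was 3.44-fold higher, at 428 ± 48.0, in the PGC1α arm (SD, n = 4; adjusted p = 1.52e-04), and its shGFP level was below that of shScr (adjusted p = 0.0266). PCOLCE, which enhances procollagen C-proteinases and so is not an inhibitor like the others named here, rose 1.80-fold (1358 ± 113 to 2436 ± 73.4, adjusted p = 2.38e-05). LRP1, the receptor that takes up MMPs and ADAMTS enzymes, rose 1.23-fold (adjusted p = 0.0142). A2M, a broad protease trap, was 1.59-fold lower (909 ± 19.4 to 575 ± 56.1, adjusted p = 1.51e-04), and RECK, a membrane-anchored MMP inhibitor, was not called (adjusted p = 0.248).

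In the set that governs the maturation of ADAM10 and ADAM17, the inactive rhomboids moved apart. RHBDF1 rose 1.52-fold (521 ± 56.2 to 788 ± 31.1, adjusted p = 4.85e-04) and RHBDF2, its paralog, was 1.32-fold lower (245 ± 26.1 to 186 ± 10.1, adjusted p = 0.00627). Both escort ADAM17 out of the endoplasmic reticulum. TSPAN14, a tetraspanin partner of ADAM10, rose 1.15-fold (adjusted p = 0.0478), with overlapping arms. It was not called against shScr alone (adjusted p = 0.236) or with hairpin 65 alone (0.0594). Of the 4 proprotein convertases, which cut the prodomains of these enzymes, limma called 0 (22.2% of all genes), with 1 at an unadjusted p under 0.05. Of the MMP inducers and docking proteins, CD63 alone was called, 1.13-fold lower (13806 ± 269 to 12229 ± 449, adjusted p = 0.0264). CD63 was not called with hairpin 65 alone (adjusted p = 0.0775), with hairpin 66 alone (0.0501) or against shScr alone (0.0771). ADAMTSL4, an ADAMTS-like matrix protein without a protease domain, was the 1 called of 4 in its set, at a low signal of 20.8 in the controls and 25.6 with the PGC1α hairpins (adjusted p = 0.0211).

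Of 13 transcription factors known to act at MMP promoters, 5 rose and 0 fell, against 11.6% and 10.7% of all genes, and their median log2 change was 0.05. The AP-1 members FOSB (78.4 ± 6.47 to 160.2 ± 7.34, 2.05-fold, adjusted p = 1.00e-05), JUNB (1.33-fold, adjusted p = 0.0214), FOSL2 (log2 0.26, adjusted p = 0.00912) and FOSL1 (1.17-fold, adjusted p = 0.0249) and the ETS factor ETV1 (1092 ± 41.5 to 1773 ± 152, 1.62-fold, adjusted p = 9.22e-05) were higher. FOSB and FOSL2 were of low signal, and for JUNB the shGFP arrays were below the shScr arrays (adjusted p = 0.0303). JUNB was not called against shScr alone (adjusted p = 0.0724), and FOSL1 was not called against shGFP alone (0.084). FOS, JUN and JUND were not called (adjusted p = 0.414, 0.939 and 0.712).

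**Figure D5:**
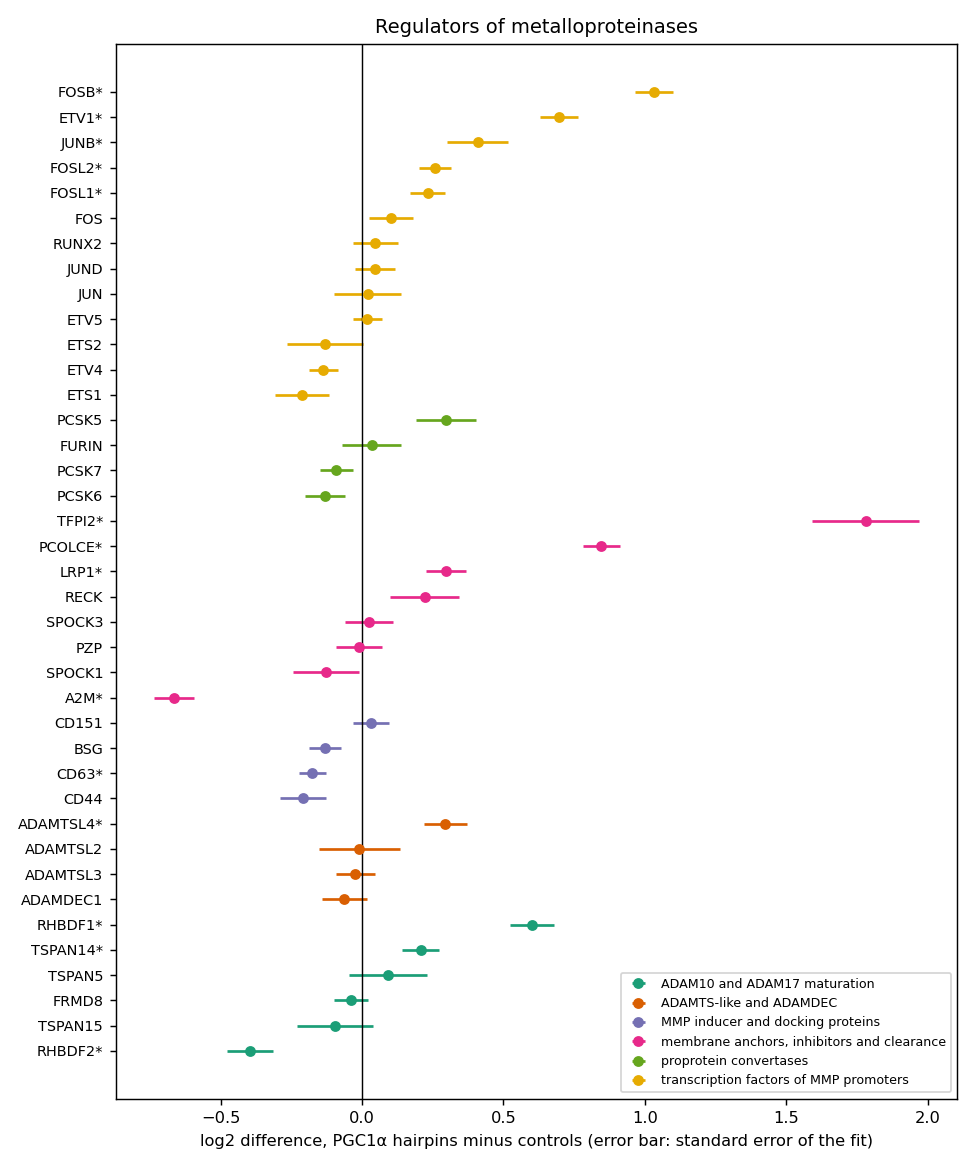
Log2 difference of the PGC1α hairpins from the controls with its standard error for the 39 measured regulators, coloured by list. An asterisk marks a gene called by limma; TFPI2, FOSB and PCOLCE lie farthest above 0 and A2M farthest below.

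The melanocyte marker sum was lower and the ACTB difference higher, by 0.35, in the PGC1α arm. Their part in these changes was not tested. A fit with the ACTB difference as a covariate cannot tell it apart from the arm, since its values did not overlap between the arms. In that fit the log2 changes were 1.61 for ADAM19 (adjusted p = 0.0526), 0.97 for ADAM12 (0.0346), 0.53 for ADAMTS1 (0.0721), 0.52 for ADAMTS3 (0.0371), 0.40 for TIMP1 (0.080) and -0.32 for TIMP2 (0.371).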

How the data were processed

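Biotin-labelled cRNA from cells with 4 hairpins was hybridised to 8 Affymetrix arrays. Each deposited table lists, for 22277 probe sets, a linear intensity. The submitters' processing notes name RMA, with no version or parameters. Here log2 was taken, with no filter on signal. Of the probe sets, 19064 had 1 symbol; for each of 11963 genes the one with the highest mean was kept, and all 55 member symbols matched RefSeq. limma 3.58.1 under R 4.3.3 compared the arms with a fit of 2 groups and single hairpins and controls in a 4-group fit, with Benjamini-Hochberg adjustment over all genes and a threshold of 0.05. Both fits were run on simulated data with independent noise per array. The simulation held no differences between hairpins of an arm, so it cannot show how the 2-group fit handles them. Single values used an exact permutation test. Arrays, not depth, limit precision: 8 in all.

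The members, the 6 regulator lists and the naming rule were chosen with earlier results of these data known. The rule names called members, TIMPs, the 10 highest signals, members called between controls or for 1 hairpin (at most 12 each), and the 4 largest uncalled changes above low signal: 22 genes. Replicate numbers do not pair the arrays (deviations correlate between -0.11 and 0.04). Alternatives were other probe set summaries, signal filters, normalizations, variance models, a log offset, blocks, left-out arrays or hairpins, a fold minimum and the ACTB covariate.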

Additional observations from a re-analysis of the deposited data

Results flagged for a closer look

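In ADAM12, the shScr replicate 2 array had a signal of 93.3, below the other 3 control arrays at 119.6 to 122, and its gap to them took up most of the range of the 4 controls on the log2 scale (Dixon ratio 0.92). Over 22 named members and both arms, 44 groups of 4 arrays were looked at and 1 stood out; chance marks about 1 in 20 such groups. Without this array the change of ADAM12 kept its call.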

How the results depend on the processing

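The count of 11 members called between the arms was 9 to 13 with each array left out, and beyond that range it was 15 without hairpin shGFP, 6 with the arrays of each hairpin averaged, 4 against a 1.2-fold minimum and 2 with the ACTB difference as a covariate. Of all genes, 17.6% to 20.8% were called with each array left out and 19.2% without hairpin shGFP. Their share was 7.34% with averaged arrays, 4.56% against the fold minimum and 4.42% with the covariate. The 14 members called with hairpin 65 were 9 with s_at and x_at probe sets dropped and 9 to 13 with each array left out. The 8 members called between shGFP and shScr and the 16 called against shScr alone were also fewer with each array left out. Those fits leave 1 hairpin with a single array. The share of all genes was not counted there, so the falls cannot be set against the whole array. The 14 regulators called were 6 with averaged arrays, 8 without hairpin 65, 7 without hairpin 66, 6 against the 1.2-fold minimum and 5 with the ACTB covariate. Without hairpin 65 or hairpin 66, 11.6% or 12.3% of all genes were called. At the 20th percentile 33 members were above low signal and at the 60th 10. The ACTB difference of 0.35 was 0.27 (without shGFP replicate 1) to 0.40 with each array left out, where 3 omissions took the exact p above the threshold (0.0571, 0.0571 and 0.0857). TIMP3 turned from -0.02 to 0.34 (adjusted p = 0.00492) without shScr and to -0.38 (adjusted p = 0.00343) without shGFP. With the replicate block 11 members were called, the same genes as without it, and with the numbers of hairpin 66 crossed, added after seeing the data, 12. The cause of these shifts was not tested, beyond fewer arrays or a stricter null in some settings. Values of low signal limit what can be said of 34 members.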
